A study of Schmidtea mediterranea with 96 samples.

Results

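Planarian cells with a high level of the PIWI-1 protein were compared with cells that had a low level of it, across every transcript of the deposited expression table. The comparison used 8 of the 96 libraries of the series, 4 of PIWI-1 high cells and 4 of PIWI-1 low cells, and each high library was set against the low library that carries the same replicate number in its label. Both populations were separated by flow cytometry from adult wild-type Schmidtea mediterranea that had received no treatment, and polyadenylated RNA was sequenced. Other libraries of the series were used only to place the transcripts that differed. These were 4 of PIWI-1 negative cells from the same table, 3 each of X1, X2 and Xins cells sorted by Hoechst stain, 3 of lethally irradiated and 3 of untreated whole animals, and 68 of amputated fragments collected over 17 times of regeneration. All animals were starved before use. Each whole-animal library pooled several worms, and irradiated worms were taken 1 day after exposure. The protocols also describe RNA from fixed cells without naming the libraries it applies to. An asexual strain (CIW4) and a sexual strain (S2F8) were kept, and the labels do not give the strain, the sex or the age of the animals behind a library. Nor do they say that replicates came from separate cultures or cell preparations, so every p-value here measures the spread between libraries, which may be technical.

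Neoblasts are the dividing cells of adult planarians. They include the stem cells from which every tissue is renewed and from which missing parts are rebuilt after amputation, and they are lost after lethal irradiation. PIWI-1 is a PIWI-family protein that neoblasts make in quantity. The protein outlasts its messenger RNA in cells that have left division, so a low level marks many of the recent descendants of neoblasts, and differentiated cells lack it. In a Hoechst sort, X1 cells carry more DNA than a resting cell and are mostly neoblasts in division, X2 cells are a mixture of neoblasts and their descendants with less DNA, and Xins cells are insensitive to irradiation and mostly differentiated.

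The tables give transcript identifiers without gene names. No transcript is therefore named here as the one that encodes PIWI-1, lists of marker genes were not used, and the labels of the 2 populations were not checked against markers. Values are FPKM, fragments per kilobase of transcript scaled to a common library total. The spacing of low values within each library gave totals of 26.8 to 44.3 M reads in the PIWI-1 high libraries and 27.6 to 33.5 M reads in the PIWI-1 low libraries. In each population the library with replicate number 2 held the most transcripts. High library 2 was also the deepest of the high libraries, at 44.3 M reads, while low library 2 had 30.5 M reads. At 1 FPKM or more, there were 11555, 14747, 11006 and 11667 transcripts in PIWI-1 high libraries 1 to 4, and 12971, 16804, 11770 and 12634 in PIWI-1 low libraries 1 to 4. The high library held fewer in 4 of 4 pairs, with differences of -1416, -2057, -764 and -967 transcripts (high minus low). The means were 12244 ± 1694 in high cells and 13545 ± 2231 in low cells (SD, n = 4 each), and the groups overlapped (exact permutation test of 4 against 4, two-sided, p = 0.429, where 0.0286 is the smallest p possible). A sign-flip test over the 4 pairs gave an exact two-sided p = 0.125, the smallest that 4 pairs can give. The most abundant transcript, picked within each library, took 29.0%, 20.2%, 38.7% and 42.7% of summed FPKM in high libraries 1 to 4. In low libraries 1 to 4 it took 33.3%, 22.5%, 51.6% and 48.4%. This share was the lower one in the high library of 4 of 4 pairs, and the groups overlapped (exact permutation test, two-sided, p = 0.457).

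More transcripts were lower than higher in PIWI-1 high cells. Of 12808 transcripts tested, 578 were higher in PIWI-1 high cells (4.51%) and 1756 were lower (13.7%), so that lower calls outnumbered higher calls 3.04 to 1. With a filter of 5 FPKM in place of 1 FPKM, the counts were 430 higher and 792 lower. Together 2334 transcripts were called (18.2%). A transcript was tested when at least 4 of the 8 libraries had 1 FPKM or more, and called when the adjusted p was under 0.05 and the difference in log2(FPKM + 1), high minus low, was at least 1 in size (limma with the replicate number as a block, Benjamini-Hochberg adjustment). The added 1 understates the change of transcripts with low values. Taken over every transcript tested, the median difference was 0.052. In RNA from whole populations, fewer cells that make a transcript and less of it in each cell cannot be told apart.

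All 578 higher transcripts were higher in 4 of 4 pairs, and 1749 of the 1756 lower ones were lower in 4 of 4, which the calls, made on these pairs, largely fix. Of all tested transcripts, 38.6% were higher in 4 of 4 pairs and 32.4% were lower. Across the 12808 transcripts, differences from one pair correlated with those from another at Pearson r of 0.844 to 0.917, over transcripts that are not independent replicates. In 466 of the higher transcripts every high library stood above every low library, and in 1385 of the lower ones every high library stood below every low library. Among all tested transcripts the same was seen in 1059 above (8.27%) and 1677 below (13.1%). Without the 2 libraries of replicate number 2, 583 transcripts were higher (4.68%) and 1666 were lower (13.4%) of 12453 tested. Without the block, 453 were higher (3.54%) and 1417 lower (11.1%).

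The 2 directions differed in size as well as in number. The higher transcripts had a median difference of 1.35, 559 of the 578 lay between 1 and 2, and 19 reached 2. The largest was 2.46. The lower transcripts had a median of -1.63, 575 of the 1756 reached a size of 2, and 51 went beyond 4. In FPKM, a higher transcript was still present in low cells at a median of 31.0% of its level in high cells. A lower transcript was present in high cells at a median of 16.1% of its level in low cells. Of 1159 lower transcripts that averaged 5 FPKM or more in low cells, 238 averaged under 1 FPKM in high cells. Of 500 higher transcripts that averaged 5 FPKM or more in high cells, 0 averaged under 1 FPKM in low cells. Transcripts under 1 FPKM in one population and at 5 FPKM or more in the other were thus seen in one direction only.

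**Figure D1:**
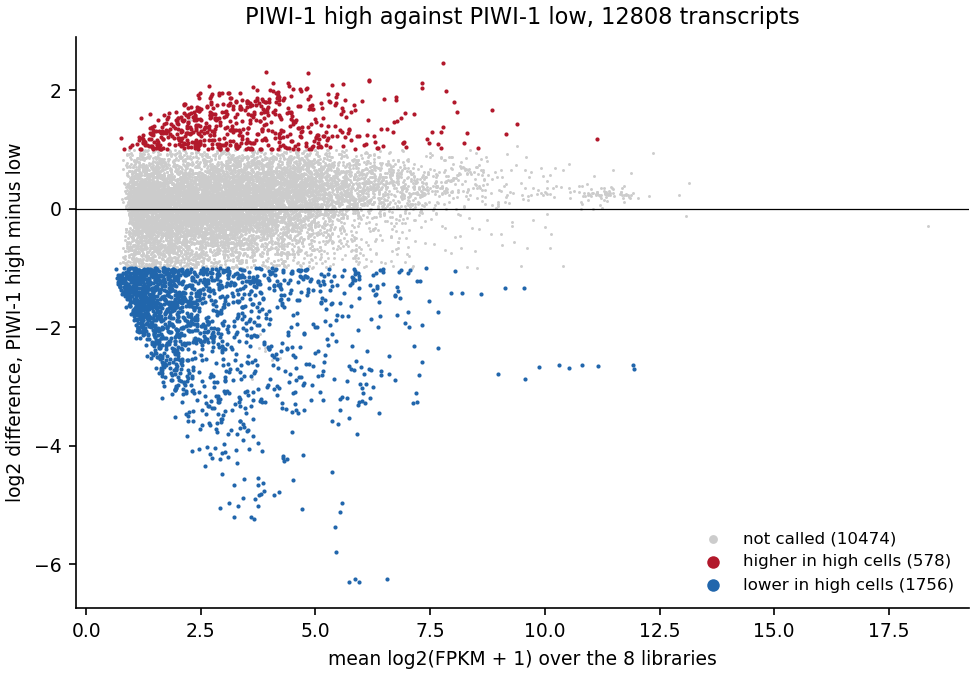
Difference in log2(FPKM + 1), PIWI-1 high minus PIWI-1 low, against the mean log2(FPKM + 1) over the 8 libraries, 1 point per tested transcript. The 578 higher calls (red) stay within 2.46 of zero, while the 1756 lower calls (blue) reach -6.29, and grey points are the transcripts that were not called.

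The balance between the directions moved with the level of the transcript. Among the 1946 tested transcripts with a mean under 2 FPKM, 1.28% were higher and 18.1% were lower. Among the 1868 with a mean of 20 to 50 FPKM, 5.73% were higher and 10.5% were lower, and above 100 FPKM the shares were 5.21% and 10.7% of 710. Lower calls outnumbered higher calls at every level examined.

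SMED30002436 had the largest difference among the higher transcripts that averaged 5 FPKM or more in high cells. It stood at 638, 532, 401 and 534 FPKM in PIWI-1 high libraries 1 to 4, and at 109, 91.2, 78.3 and 97.2 FPKM in PIWI-1 low libraries 1 to 4. All high libraries lay far above all low ones, with a difference of 2.46 ± 0.05 (SE) in log2(FPKM + 1) and an adjusted p of 5.34e-06 (limma). The PIWI-1 negative libraries 1 to 4 held 4.91, 11.6, 2.13 and 6.44 FPKM, below every low library. SMED30006979, the next in order, was less abundant and more variable, at 39.6, 72.9, 16.9 and 23.0 FPKM in high libraries and 7.11, 10.4, 3.41 and 4.15 FPKM in low libraries. Its highest value in each population came from replicate number 2 and its lowest from replicate number 3, so that the 4 pairs moved in parallel. The groups did not overlap, and the difference was 2.32 ± 0.12 (SE; limma, adjusted p = 2.94e-05). Both transcripts thus followed the order high, low, negative at each of the 4 replicate numbers.

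The 2 transcripts with the largest fall followed another order. SMED30025454 stood at 1.03, 10.1, 4.36 and 9.77 FPKM in PIWI-1 high libraries 1 to 4, and at 420, 741, 312 and 506 FPKM in PIWI-1 low libraries 1 to 4. The difference was -6.29 ± 0.33 (SE; limma, adjusted p = 3.53e-05), with no overlap between the groups. PIWI-1 negative libraries 1 to 4 held 333, 62.3, 14.9 and 54.0 FPKM, so at each replicate number the low cells were highest, the negative cells followed, and the high cells were last. SMED30006007 stood at 0.949, 15.0, 5.94 and 10.1 FPKM in high libraries and 416, 736, 557 and 525 FPKM in low libraries. The difference was -6.29 ± 0.36 (SE; limma, adjusted p = 4.52e-05). Its negative libraries held 406, 148, 42.7 and 168 FPKM, the same order of populations as for SMED30025454. For both, the high library of replicate number 1 was the lowest of the 4 and made its pair's difference the largest.

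**Figure D2:**
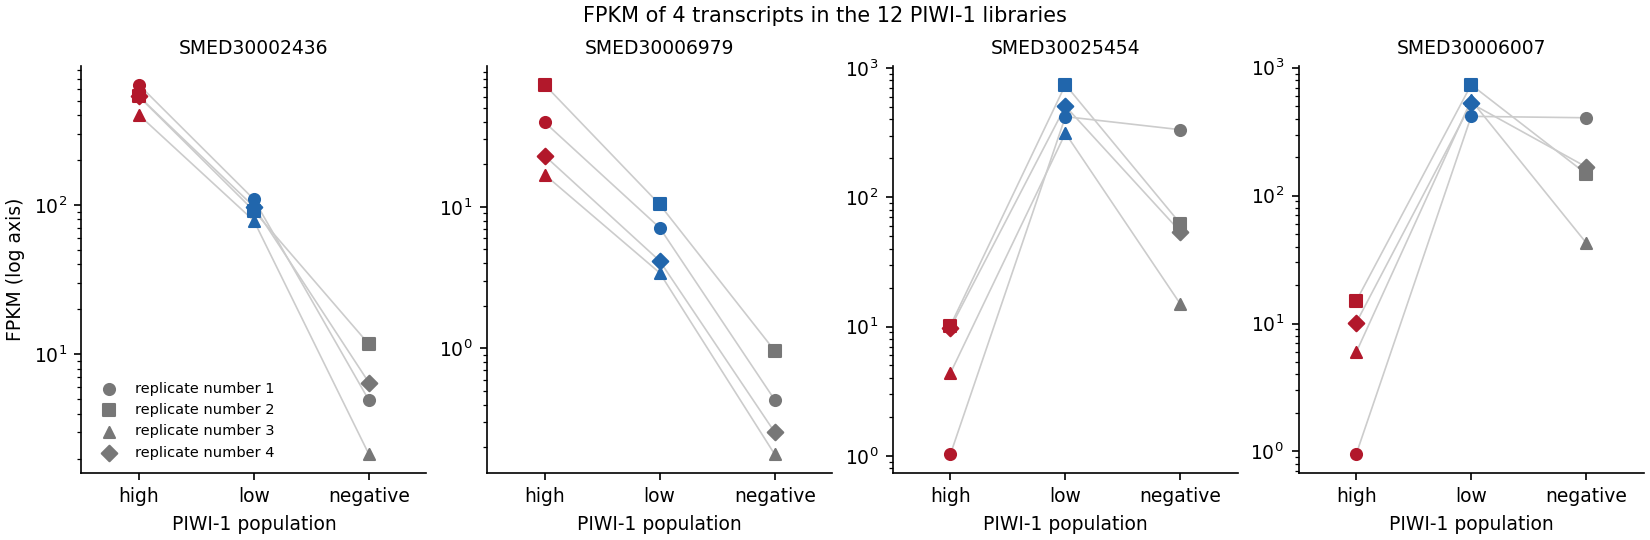
FPKM (log axis) of 4 transcripts in PIWI-1 high (red), low (blue) and negative (grey) cells, 1 point per library, with marker shapes and lines joining libraries that share a replicate number. The 2 higher transcripts on the left step down from high to low to negative at each replicate number, and the 2 lower transcripts on the right peak in the low cells.

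The PIWI-1 negative cells, which had no part in the calls but stand in the same table, extended both patterns in their medians. The higher transcripts had a median level of 16.1 FPKM in high cells, 5.19 in low cells and 1.49 in negative cells. The lower transcripts had a median of 1.29 FPKM in high cells, 8.25 in low cells and 16.1 in negative cells. Transcripts that were not called had medians of 7.74, 7.79 and 8.03 FPKM in the same order of populations. By population of highest mean, 568 of the 578 higher transcripts were highest in the high cells and the other 10 in the negative cells. Of the lower transcripts, 618 were highest in the low cells and 1138 in the negative cells. The calls largely fix that a higher transcript does not peak in low cells, nor a lower one in high cells. Of the 10474 uncalled transcripts, 4866 peaked in high cells, 1696 in low cells and 3912 in negative cells.

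As a part of each library, the higher transcripts made up 3.42%, 4.35%, 2.12% and 2.48% of summed FPKM in PIWI-1 high libraries 1 to 4, and 1.25%, 1.54%, 0.707% and 0.882% in PIWI-1 low libraries 1 to 4. The lower transcripts made up 1.63%, 2.88%, 1.27% and 1.81% in the high libraries and 9.96%, 12.2%, 7.68% and 8.86% in the low libraries. The calls chose these transcripts for such a gap, so the shares describe its size and carry no test. In PIWI-1 negative libraries 1 to 4 the higher transcripts made up 0.430%, 0.586%, 0.167% and 0.282%. The lower transcripts made up 18.7%, 16.4%, 6.16% and 9.96% there, a range that overlapped that of the low libraries. These shares depend on the few most abundant transcripts. With each library's most abundant transcript left out of its total, they were 30.6%, 26.5%, 10.4% and 29.9% in negative libraries 1 to 4. In low libraries 1 to 4 they were then 14.9%, 15.7%, 15.9% and 17.2%, so only negative library 3 did not lie above every low library. In the X sort, which shares no library with the calls, the higher transcripts took 3.47% to 3.68% of X1 libraries, 1.00% to 1.06% of X2 libraries and 0.641% to 0.824% of Xins libraries. The lower transcripts took 1.15% to 1.27% of X1 libraries, 9.39% to 9.79% of X2 libraries and 19.0% to 21.7% of Xins libraries. None of these ranges overlapped between X1 and X2.

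**Figure D3:**
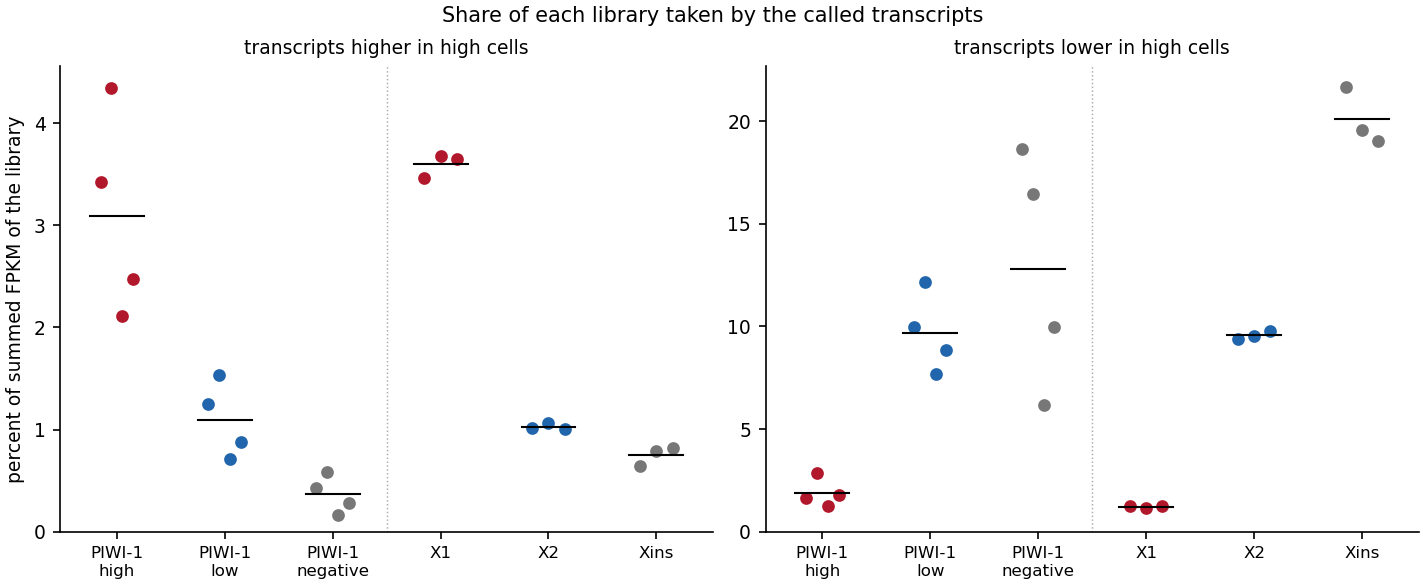
Percent of summed FPKM taken by the 578 higher transcripts (left) and the 1756 lower transcripts (right) in each library of the PIWI-1 sort and of the X sort, with points for libraries and bars for group means. The X1 libraries lie near the PIWI-1 high libraries and the X2 libraries near the PIWI-1 low libraries in both panels, and the 2 panels have different scales.

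The calls carried over to X1 against X2 cells, a comparison made from other libraries and another stain. Of the 578 higher transcripts, 528 were tested there and 439 were higher in X1 cells (83.1%), against 5.39% of all 15347 transcripts tested (limma, 3 libraries each). Calls in either direction made up 24.6% of those 15347. Of these 528, 0 were lower in X1 cells, and 0 were lower at an unadjusted p under 0.05. Of the 1756 lower transcripts, 1727 were tested and 1415 were lower in X1 cells (81.9%), against 19.2% of all tested. Of these 1727, 0 were higher in X1 cells, and 0 were higher at an unadjusted p under 0.05. The median X1 minus X2 difference was 1.66 for the higher transcripts, -1.90 for the lower ones and -0.28 for all tested. Seen from the X sort, 58.1% of its 756 higher calls and 62.3% of its 2271 lower calls that were tested in both were calls of the same direction between PIWI-1 high and low cells. Of all 11900 tested in both, 528 were higher and 1727 lower in PIWI-1 high cells. When the calls were made without replicate number 2, 439 of 536 higher transcripts were higher in X1 cells and 2 were lower, and 1374 of 1638 lower transcripts were lower.

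The 4 named transcripts were called in the same direction in the X sort, with sizes of their own. SMED30002436 averaged 1083 ± 84.2 FPKM in X1 cells and 41.8 ± 8.79 in X2 cells (SD, n = 3 each), a log2 difference of 4.68 ± 0.18 (SE), larger than its 2.46 between PIWI-1 high and low cells. SMED30006979 averaged 6.88 FPKM in X1 cells and 0.323 in X2 cells, so it was scarce in a sort where the first was abundant. SMED30025454 averaged 7.91 FPKM in X1 cells, 69.9 in X2 cells and 1664 in Xins cells, and SMED30006007 averaged 16.3, 87.7 and 2233 FPKM in the same order. Both were highest in the PIWI-1 low cells of one sort and in the Xins cells of the other.

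Across all 11900 transcripts tested in both sorts, the 2 differences correlated at Pearson r = 0.84 and Spearman rho = 0.87, over transcripts that share their libraries. The relation was steady on the higher side and flat at the far lower end. Transcripts 0.5 to 1 higher in PIWI-1 high cells had a median X1 minus X2 difference of 0.55, those 1 to 1.5 higher had 1.36, those 1.5 to 2 higher had 2.25, and the 19 beyond 2 had 3.28. On the lower side the medians were -1.62 for transcripts between -2 and -1, -2.45 between -3 and -2, -2.54 between -4 and -3, and -2.43 for the 51 beyond -4.

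Tested transcripts were put in classes by the X population of their highest mean, with a minimum of 1 FPKM. Most higher calls lay in the X1 class, and most lower calls in the X2 and Xins classes. Of all 12808 tested, 4.51% were higher and 13.7% were lower. Of 3490 transcripts highest in X1 cells, 536 were higher in PIWI-1 high cells (15.4%), and their median difference was 0.54. Of 2122 highest in X2 cells, 0 were called higher and 372 were lower (17.5%), with a median of -0.09. Of 6459 highest in Xins cells, 11 were higher (0.170%) and 1365 were lower (21.1%), with a median of -0.23. The other 19 lower transcripts were highest in X1 cells or under 1 FPKM in all 3 X populations. The other 31 higher transcripts were under 1 FPKM in all 3. With a minimum of 5 FPKM, the lower calls were 17.5% of the X2 class and 26.2% of the Xins class, with median differences of -0.08 and -0.34. At that minimum, 191 higher and 290 lower calls fell in none of the 3 classes. No test was made between the classes.

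The 618 lower transcripts that peaked in PIWI-1 low cells differed in level from the 1138 that peaked in negative cells. The first set had medians of 2.78 FPKM in high cells, 13.8 in low cells and 5.54 in negative cells, and the second had 0.869, 6.40 and 25.3. In the X sort the low-peaking set had medians of 1.69 FPKM in X1 cells, 14.7 in X2 cells and 25.3 in Xins cells. It held 153 transcripts highest in X2 cells (24.8%), against 219 in the negative-peaking set (19.2%). Transcripts highest in Xins cells numbered 458 of the low-peaking set (74.1%) and 907 of the negative-peaking set (79.7%). Among the 1696 uncalled transcripts that peaked in PIWI-1 low cells, 39.4% were highest in X2 cells and 50.2% in Xins cells. Their X2 share was thus larger than that of the 618. Among the 3912 uncalled transcripts that peaked in negative cells, the shares were 7.67% and 78.3%. Of all 12808 tested, 2122 were highest in X2 cells and 6459 in Xins cells.

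Lethal irradiation of whole animals separated the 2 directions further. Of the 578 higher transcripts, 462 were tested in whole animals and 217 were lower in irradiated than in untreated animals (47.0%), against 1.74% of all 19651 transcripts tested (limma, 3 libraries each). Of these 462, 0 were called higher. At an unadjusted p under 0.05 (limma), 396 were lower and 9 were higher, against 4809 and 3624 of all 19651. The median difference of the 462, irradiated minus untreated, was -0.94, against -0.02 for all tested. The other 116 higher transcripts did not reach 1 FPKM in 3 of the 6 whole-animal libraries. Of the 1756 lower transcripts, 1730 were tested, of which 21 were lower in irradiated animals (1.21%) and 6 were higher, with a median of 0.14. Of all tested, 0.168% were called higher and 1.9% in either direction. From the other side, 64.4% of the 337 irradiation-lowered transcripts tested in both were higher in PIWI-1 high cells, as were 462 of all 11860 tested in both. Without replicate number 2, 216 of 465 higher transcripts were lower in irradiated animals.

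Among transcripts on the higher side, the share that was lower in irradiated animals was larger in each bin with a larger PIWI-1 difference. It was 0.334% of the transcripts between -0.5 and 0.5, 4.52% between 0.5 and 1, 26.2% between 1 and 1.5, and 75.4% between 1.5 and 2. All 18 transcripts tested beyond 2 were lower in irradiated animals. On the other side it was 0.258% between -1 and -0.5, 0.519% between -2 and -1, and 3.68% between -3 and -2. Between -4 and -3 it was 0 of 128 transcripts, with 8 lower at an unadjusted p under 0.05, and beyond -4 it was 0 of 51, with 1 lower at that p (limma). The 2 differences correlated at Pearson r = -0.47 and Spearman rho = -0.57 over 11860 transcripts. SMED30002436 averaged 0.871 ± 0.568 FPKM in irradiated and 39.2 ± 3.49 in untreated animals (SD, n = 3 each), a log2 difference of -4.46 ± 0.20 (SE). SMED30006979 averaged 0.158 FPKM in irradiated and 8.42 in untreated animals. SMED30025454 averaged 648 FPKM in irradiated and 514 in untreated animals and SMED30006007 694 and 673 FPKM in the same order, and neither passed the call.

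**Figure D4:**
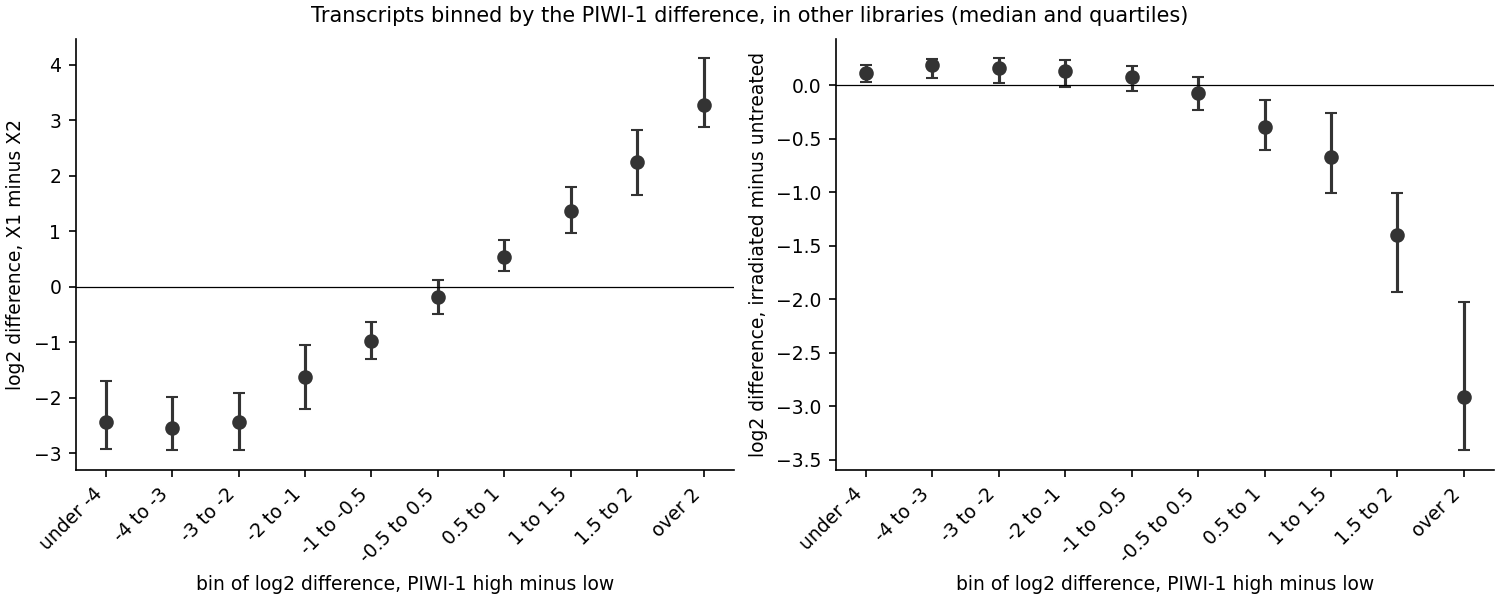
Median (point) and quartiles (bar) of the log2 difference in 2 comparisons made from other libraries, X1 minus X2 cells (left) and irradiated minus untreated animals (right), for transcripts binned by their log2 difference between PIWI-1 high and low cells. In the left panel the medians run from -2.43 in the lowest bin to 3.28 in the highest, and in the right panel they stay near zero below 0.5 and fall beyond it.

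The higher transcripts were not all called in these 2 outside comparisons. Of the 442 tested in all 3 comparisons, 196 were both higher in X1 cells and lower in irradiated animals, 163 were higher in X1 cells alone, 17 were lower in irradiated animals alone, and 66 were called in neither. These 442 are part of 11297 transcripts tested in all 3, over which the shares of these combinations are not given here. Over all transcripts tested in each comparison, 5.39% were higher in X1 than in X2 cells and 1.74% were lower in irradiated animals. The 196 had a median PIWI-1 difference of 1.68 and medians of 33.7 FPKM in high cells, 9.02 in low cells and 1.34 in negative cells. In irradiated animals their median level was 0.460 FPKM, against 4.59 FPKM in untreated animals. The 163 had a median PIWI-1 difference of 1.29 and medians of 16.0, 5.86 and 3.15 FPKM in high, low and negative cells. Their median level was 2.98 FPKM in irradiated and 4.26 FPKM in untreated animals. Though none of the 163 was called lower there, their median difference, irradiated minus untreated, was -0.56, against -1.68 for the 196. The 66 had a median PIWI-1 difference of 1.08, near the limit for a call, and medians of 14.8, 6.61 and 4.58 FPKM. Their median irradiated minus untreated difference was -0.44, also without a call. Of these 3 sets, the 196 had the lowest median in negative cells and the 66 the highest, and no test was made between them.

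The 21 transcripts that were lower in PIWI-1 high cells and also lower in irradiated animals were 1.21% of the lower transcripts tested. That share was near the one among uncalled transcripts, of which 99 of 9668 tested were lower in irradiated animals (1.02%). Of all 19651 transcripts tested in whole animals, which include the higher transcripts, it was 1.74%. All 21 were highest in PIWI-1 low cells of the 3 PIWI-1 populations, as were 618 of all 1756 lower transcripts. All 21 were lower in X1 than in X2 cells, as were 545 of the 612 tested there among those 618. The median levels of the 21 were 40.2 FPKM in high cells, 176 in low cells and 7.27 in negative cells. In the X sort their medians were 5.10 FPKM in X1 cells, 210 in X2 cells and 415 in Xins cells. Of the 21, 6 were highest in X2 cells and 15 in Xins cells, where the 618 had 24.8% and 74.1%. In whole animals the median of the 21 was 4.72 FPKM after irradiation and 24.9 FPKM without it. The 21 included very abundant transcripts, with means up to 10209 FPKM in PIWI-1 low cells.

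In regenerating fragments most transcripts higher in PIWI-1 high cells stood above their 0 hr level within days. Of the 578, 557 were tested in the fragments, and their median difference from 0 hr was 0.25 at 12 hr, 0.35 at 24 hr, 0.56 at 48 hr and 0.67 at 72 hr, where it was highest. At 72 hr the 4 libraries had medians of 0.62 to 0.78, and 505 transcripts stood above their 0 hr mean (90.7%). The median was 0.34 at 14 day. Over all 24546 tested transcripts the median was 0.13 at 72 hr and 0.25 at 14 day, and 62.5% stood above 0 hr at 72 hr. The 1747 lower transcripts that were tested kept medians between -0.14 at 12 hr and 0.02 at 6 day. All times share the 0 hr libraries, so these values are a description and carry no test.

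The named transcripts moved by time as follows. SMED30002436 averaged 41.5 ± 2.16 FPKM at 0 hr, 92.2 ± 7.81 at 72 hr and 53.5 ± 3.22 at 14 day (SD, n = 4 each). SMED30006979 averaged 8.90 ± 0.931, 20.3 ± 2.40 and 12.4 ± 1.30 FPKM at the same times. Both peaked at 72 hr among these 3 times. SMED30025454 averaged 132 ± 5.54, 93.4 ± 50.8 and 201 ± 53.7 FPKM, with a wide spread between libraries after amputation. SMED30006007 averaged 308 ± 50.6, 414 ± 74.6 and 662 ± 188 FPKM, the highest of these at 14 day.

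**Figure D5:**
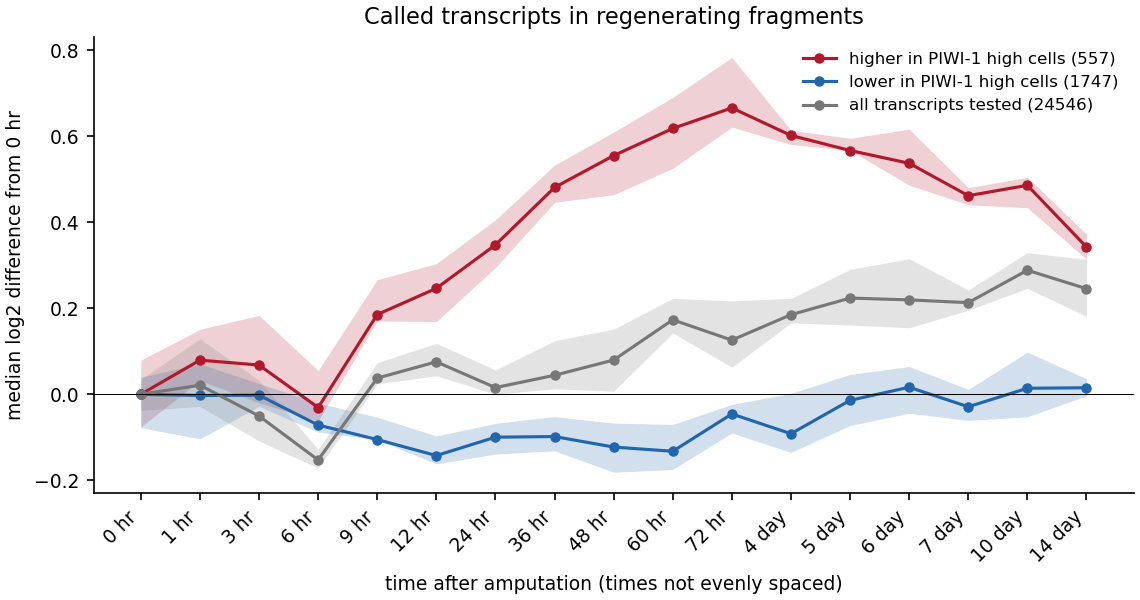
Median log2 difference from 0 hr in regenerating fragments over the transcripts higher (red) and lower (blue) in PIWI-1 high cells and over all tested transcripts (grey), with shading from the lowest to the highest of the 4 libraries at each time. The higher transcripts climb to 0.67 at 72 hr, while the lower ones stay between -0.14 and 0.02, and the times are not evenly spaced.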

How the data were processed

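Polyadenylated RNA of sorted cells, whole animals and fragments was sequenced with Illumina TruSeq libraries, per the labels' protocols. The authors deposited FPKM values per transcript in 3 tables, for the PIWI-1 sort, for the X sort with the whole animals, and for the fragments, and tests were kept within a table. The submitters' processing notes name Bowtie2 2.2.9 and edgeR without their roles. The genome or transcriptome build and the counting method are not given in the sources used here. The members and lists were chosen with earlier results of these data known.

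Values were analysed as log2(FPKM + 1) with limma 3.58.1 in R 4.3.3 (moderated test with a trend in the variance, two-sided, Benjamini-Hochberg over all transcripts tested). PIWI-1 high and low libraries were fitted alone, with replicate number as a block. X1, X2 and Xins libraries were fitted together, and irradiated and untreated animals together, each without a block and with 1 FPKM required in at least 3 libraries. Single values per library were compared with exact permutation tests. Same-numbered high and low libraries deviated together from their group means, at correlations of 0.527, 0.832, 0.724 and 0.833 for numbers 1 to 4, so the numbers were taken to pair the libraries. The labels do not say what a number marks.

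Totals in reads came from the steps between low FPKM values, with 1 whole-number length per transcript. Of 36035 transcripts in the sorted-cell table, 32632 were above 0 in at least 3 libraries. For all of these a length was found at which every value gave whole reads within 0.05 of a read. The lengths were chosen by that rule. Depth was 24.2 to 32.4 M reads in PIWI-1 negative cells, 33.9 to 36.0 M in the X sort, 33.8 to 40.1 M in whole animals and 9.54 to 20.2 M in fragments. The other 2 tables reused these lengths, and fewer of their low values gave whole reads. The shares were 96.7% to 98.2% in the X sort, 87.8% to 92.1% in whole animals and 96.1% to 99.1% in fragments. Depth limits the precision of low values.

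Named transcripts were the 2 highest and 2 lowest differences among calls with 1 direction in 4 pairs and an average of 5 FPKM or more in the population where they were higher. Alternatives were another scaling, pseudocount, filter and set of libraries, no block, each replicate left out, and limma voom on recovered reads. One library without a group in the labels entered no comparison.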

Additional observations from a re-analysis of the deposited data

Results flagged for a closer look

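Among 29 sets of 4 library values examined, 2 held a library that stood far from the other 3, and chance alone would do so in about 1 set in 20. The single most abundant transcript took 66.7% of summed FPKM in PIWI-1 negative library 4, while the other 3 negative libraries lay between 38.0% and 41.1%. SMED30025454 stood at 333 FPKM in PIWI-1 negative library 1, while the other 3 negative libraries held 62.3, 14.9 and 54.0 FPKM. Neither library entered the main comparison of PIWI-1 high with low cells. Both entered the means over the 4 negative libraries. The medians in negative cells and the counts by population of highest mean rest on those means. How far they depend on any 1 negative library was not tested. Negative library 3, which was not flagged, held 4741 transcripts at 5 FPKM or more, against 8004 to 12084 in the other 3 negative libraries.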

How the results depend on the processing

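Lower calls outnumbered higher ones under all 12 alternatives. Without the replicate block, 453 transcripts were higher and 1417 lower. The 578 higher calls became 903 with a pseudocount of 0.1 and 910 with limma voom on recovered reads, an alternative chosen after seeing the data. With a 5 FPKM filter, 7550 transcripts were tested, and total calls were 1222, of which 792 were lower (64.8%, against 75.2%). The median difference over all transcripts, 0.052, was -0.043 when the negative libraries joined the fit, -0.032 with totals that left out the most abundant transcript, and 0.15 with the 5 FPKM filter. With each replicate number left out in turn, higher calls ranged from 583 to 610 and lower calls from 1666 to 1983. The named transcripts kept their calls, with adjusted p up to 0.00797 (limma). With calls made without replicate number 2, also chosen after seeing the data, 2 higher transcripts were lower in X1 cells, against 0. The share of transcripts highest in Xins cells that were called higher was 0.0686% at a minimum of 5 FPKM. The 72 hr median of the higher transcripts was 0.88 with a pseudocount of 0.1. The cause of these shifts was not tested.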

Other observations

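A library of total RNA to which the labels give no group held 19806 transcripts at 1 FPKM or more. Transcripts higher in PIWI-1 high cells made up 0.943% of its summed FPKM and transcripts lower in them 31.5%.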
